A study of Sus scrofa with 60 samples.

Results

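The endoplasmic reticulum (ER) is where secreted and membrane proteins are folded, and the hepatocyte is a heavy secretor of plasma proteins. Messenger RNA of 8 genes of this compartment was followed in porcine liver: HSPA5, DNAJB11, DNAJC3, SDF2L1, HSPA13, CALR, TMED3 and HM13. They were read by 10 probe sets, groups of short oligonucleotides that each report a transcript, out of 23999 on the array that were not controls. The members are all probe sets annotated to these symbols alone, and DNAJC3 and HSPA13 had 2 each. The genes were picked because earlier results on the same animals had shown their levels over the stages and their covariation, so that stage levels, stage differences and correlations of the 8 genes are descriptions here and carry no test.

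All samples were livers of German Landrace pigs whose mothers had received an adequate protein (AP) diet during pregnancy. The offspring were sampled before birth at 94 days post conceptionem (94 dpc, 15 animals) and after birth at 1, 28 and 188 days post natum (1 dpn, 15 animals; 28 dpn, 14 animals; 188 dpn, 16 animals), with 1 Affymetrix GeneChip Porcine Genome array per animal. Offspring of mothers on the high protein diet were not analysed here. Consecutive stages delimit period I (1 dpn against 94 dpc), period II (28 dpn against 1 dpn) and period III (188 dpn against 28 dpn). The study's methods state that fetuses were taken by Caesarean section in an experiment of their own, that newborns were killed by injection and that older pigs were slaughtered after a night without feed, all of which cannot be told apart from stage. They also state that fetuses and newborns were picked as light and heavy sibs, a choice not made at the later stages.

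HSPA5, also called BiP, is the Hsp70 chaperone of the ER lumen: it binds unfolded chains, is driven by ATP and holds the sensors of the unfolded protein response in check. DNAJB11 and DNAJC3 are J-domain proteins that hand it clients and stimulate its ATPase, and SDF2L1 forms a complex with DNAJB11. CALR and its membrane-bound relative CANX are lectins that retain glycoproteins until they are folded. When unfolded protein accumulates, the unfolded protein response raises the transcription of many of these genes, through the factors XBP1 and ATF6 among others.

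Levels are log2 of the intensity plus 16, a scale on which 1 unit is a doubling well above background, and each difference is the later stage minus the earlier, ± its standard error (SE) from the fit. Background, taken from the array's Tag control probe sets, averaged at most 5.86 in fetuses, 6.29 in newborns, 5.73 at 28 dpn and 5.84 at 188 dpn. All 9 hepatocyte markers checked, ALB and APOA1 among them, lay above the array median at every stage, but 8 of 9 fell in period II (median change -0.49) and 7 of 9 rose in period III (median change 0.30). Markers of red cell formation moved with stage: the summed intensity of the 6 erythroid markers measured ranged from 10000 to 45000 at 94 dpc, from 1260 to 4990 at 1 dpn, from 1340 to 8060 at 28 dpn and from 2110 to 8550 at 188 dpn. Of the 3 measured markers of B and plasma cells, which are themselves rich in ER, 0 lay above the array median at 94 dpc and at 1 dpn, and 1, JCHAIN, did at 28 and 188 dpn. The summed intensity of the 7 macrophage markers measured had a median of 15400 in fetuses, 22600 in newborns, 48100 at 28 dpn and 34200 at 188 dpn. That of the 9 neutrophil and megakaryocyte markers measured had a median of 23500 in fetuses, against 3860 in newborns and 1540 and 1530 in the 2 older groups. In whole tissue, fewer cells of a type and less RNA per cell cannot be told apart. The 3′ to 5′ signal ratio of the actin control is a measure of RNA integrity and labelling. On the log2 scale it averaged 2.29 in fetuses, 1.76 in newborns, 3.54 at 28 dpn and 4.01 at 188 dpn. That of the GAPDH control averaged 0.99, 0.38, 0.77 and 0.68 at the same stages. Both controls were lowest in newborns, but only actin was higher in the older pigs than in fetuses. The part of these cell measures in the stage differences below was not tested, and the actin ratio entered only as a covariate in alternative fits. Its highest value was 2.23 at 1 dpn and its lowest 2.85 at 28 dpn. In period II such a fit therefore cannot separate the ratio from stage.

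HSPA5 was highest at 1 dpn and lowest at 188 dpn, and its highest and lowest stage lay 3.18-fold apart, against 8.00-fold for DNAJB11 and 11.6-fold for SDF2L1. Its lowest, median and highest animals were 13.47, 14.16 and 14.41 at 94 dpc, 14.23, 14.62 and 15.38 at 1 dpn, 13.68, 14.33 and 14.56 at 28 dpn, and 12.07, 13.14 and 13.80 at 188 dpn. The difference was 0.65 ± 0.12 (SE) in period I, -0.45 ± 0.12 in period II and -1.22 ± 0.15 in period III. Animals overlapped in each period, with 3 newborns inside the fetal range and 1 pig of 188 dpn inside the range of 28 dpn. The spread between animals was widest at 188 dpn, with an SD of 0.52 against 0.26 to 0.34 at the other stages.

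DNAJB11 and DNAJC3 were likewise highest at 1 dpn, and DNAJB11 and the brighter DNAJC3 probe set differed more than HSPA5 in periods I and II. DNAJB11 had 9.31, 9.68 and 9.77 as lowest, median and highest level at 94 dpc, 10.95, 11.85 and 12.27 at 1 dpn, 9.10, 10.06 and 10.64 at 28 dpn, and 8.16, 8.75 and 9.46 at 188 dpn. Every newborn thus lay above every fetus and above every pig of 28 dpn, while 3 pigs of 188 dpn reached into the range of 28 dpn. The differences were 2.13 ± 0.11 or 4.39-fold higher in period I, -1.66 ± 0.14 or 3.17-fold lower in period II and -1.34 ± 0.13 or 2.53-fold lower in period III.

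The brighter DNAJC3 probe set had 9.32, 9.56 and 9.88 at 94 dpc, 10.03, 10.69 and 11.28 at 1 dpn, 8.15, 8.77 and 9.17 at 28 dpn, and 7.70, 8.34 and 9.02 at 188 dpn. Newborns again stood clear of both neighbouring stages, and the stages 28 and 188 dpn overlapped in most animals. The second DNAJC3 probe set showed the same order of 1 dpn over its neighbours with smaller differences, 0.64 ± 0.11 in period I and -0.67 ± 0.13 in period II, the second of which was -0.021 with the actin ratio as a covariate. The brighter one was 2.14-fold higher in period I and 3.84-fold lower in period II, and the stages of the second overlapped in every period. Over animals of a stage the 2 probe sets had an r of 0.78 at 1 dpn and of 0.22 in fetuses, -0.10 at 28 dpn and 0.20 at 188 dpn, so that they are not interchangeable readings of the gene.

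SDF2L1 had the largest difference of the 8 genes around birth. Its lowest, median and highest levels were 8.31, 9.16 and 9.36 at 94 dpc, 11.49, 12.56 and 13.24 at 1 dpn, 10.39, 11.30 and 12.84 at 28 dpn, and 9.60, 10.53 and 11.62 at 188 dpn. All animals after birth exceeded all fetuses. Newborns were higher than fetuses by 3.53 ± 0.16, an 11.6-fold difference, and the level was lower by 1.19 ± 0.20 in period II and by 0.75 ± 0.20 in period III. It was the only one of the 10 probe sets whose lowest stage was 94 dpc.

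HSPA13, an Hsp70-like ATPase of microsomes that lacks the peptide-binding part of the family, had a different time course, with similar levels around birth and low levels from 28 dpn onwards. The brighter probe set had 10.10, 10.41 and 10.66 as lowest, median and highest level at 94 dpc, 9.47, 10.43 and 12.37 at 1 dpn, 6.60, 7.72 and 8.21 at 28 dpn, and 6.43, 7.66 and 8.60 at 188 dpn. The newborns spread on both sides of the fetuses (SD 0.80 against 0.20), and the difference in period I was 0.21 ± 0.21. In period II it was lower by 2.95 ± 0.24, 7.71-fold, with no overlap of animals. The second probe set gave -2.94 ± 0.21 in that period, but its means of 5.52 at 28 dpn and 5.70 at 188 dpn were at background, so that its difference is a lower limit.

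TMED3, a p24 family cargo receptor that shuttles between ER and Golgi, and HM13, the signal peptide peptidase that cuts cleaved signal sequences inside the ER membrane, were likewise low from 28 dpn onwards. TMED3 had 9.14, 10.59 and 11.20 at 94 dpc, 9.62, 10.88 and 11.99 at 1 dpn, 6.81, 7.67 and 8.22 at 28 dpn, and 5.97, 6.97 and 7.76 at 188 dpn, which is a 9.14-fold lower mean in period II (-3.19 ± 0.21). HM13 had 9.69, 10.21 and 10.58 at 94 dpc, 10.85, 11.94 and 12.69 at 1 dpn, 8.36, 8.88 and 9.16 at 28 dpn, and 8.16, 8.66 and 9.30 at 188 dpn. For TMED3 and HM13 the animals around birth lay above all of the 2 older stages, and HM13 alone also separated newborns from fetuses (1.63 ± 0.14). In period III HM13 differed by -0.13 ± 0.11, less than the SD between animals of either stage, and TMED3 by -0.80 ± 0.17.

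CALR had a time course of its own among the 8 genes. Its lowest, median and highest levels were 9.74, 10.41 and 10.95 at 94 dpc, 9.59, 10.16 and 10.66 at 1 dpn, 11.25, 11.94 and 12.29 at 28 dpn, and 10.72, 11.01 and 11.68 at 188 dpn. It was lowest at 1 dpn, where the other genes peaked, and highest at 28 dpn, where each animal exceeded each newborn (1.70 ± 0.12, 3.25-fold). The summed macrophage markers were highest at 28 dpn too, and their part in the CALR difference was not tested. In period I it was lower by 0.32 ± 0.12, with 13 of 15 newborns inside the fetal range, and in period III lower by 0.75 ± 0.11.

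**Figure D1:**
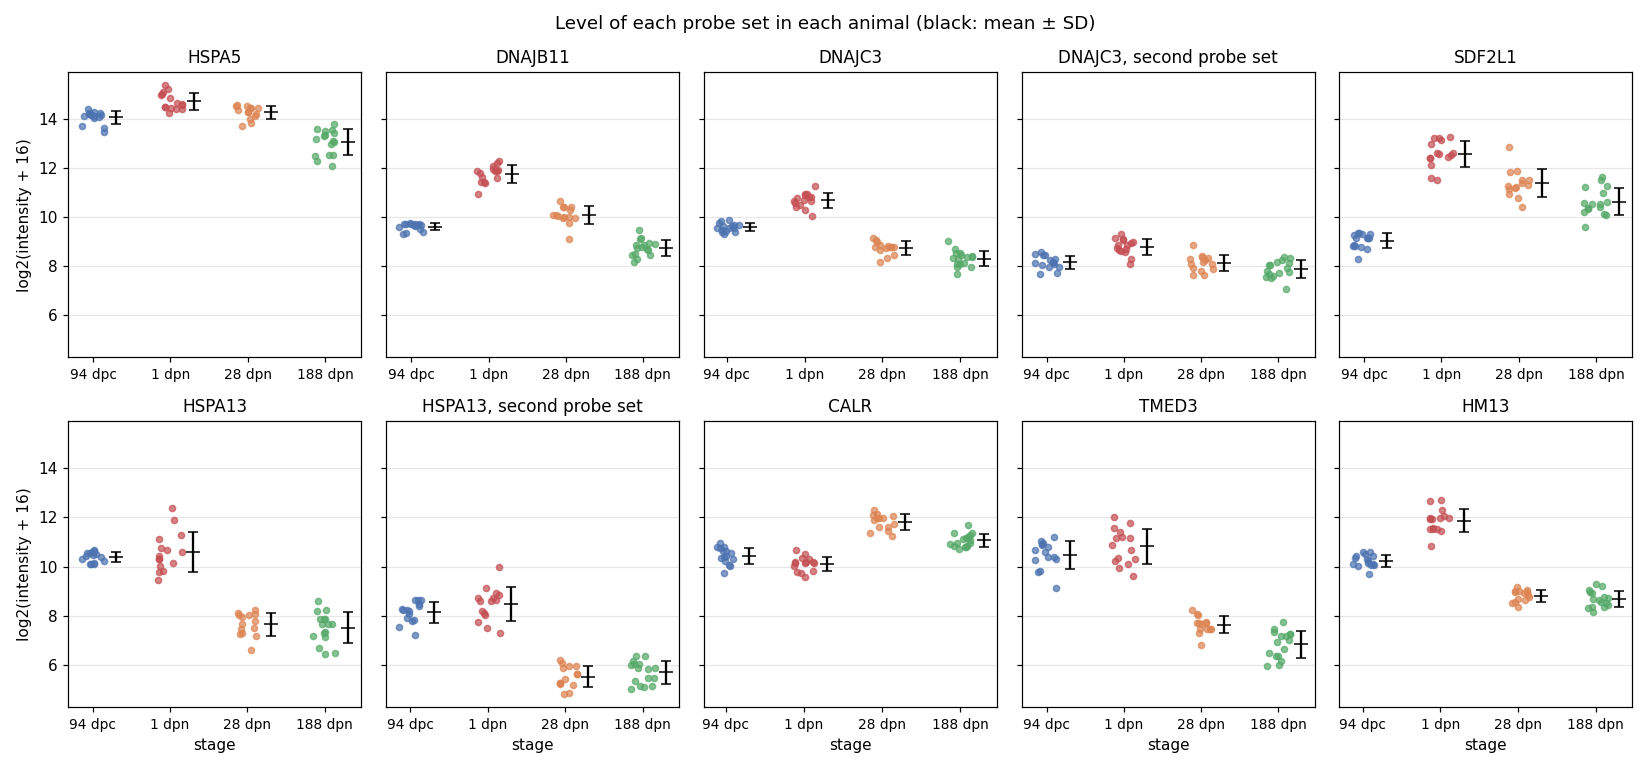
Level of each of the 10 probe sets (log2 of intensity plus 16, vertical axis) in every animal at the 4 stages (horizontal axis, in order of age). Points are animals and the black mark with bars is the mean ± SD of 14 to 16 animals. The mean is highest at 1 dpn in 9 of 10 panels, and in the CALR panel at 28 dpn.

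All 10 probe sets passed the filter on low values in periods I and II and 9 did in period III. Counted over the 10, the mean was highest at 1 dpn for 9 and lowest at 188 dpn for 7. Of all 5491 genes tested over the stages, 22.2% were highest at 1 dpn and 36.1% lowest at 188 dpn. Newborns and fetuses did not overlap for 4 probe sets, all higher at 1 dpn, where 4.46% of all probe sets stood higher and 5.53% lower without overlap. In period II 1 probe set was higher (CALR) and 6 were lower without overlap, against 4.59% and 6.83% of all probe sets. The 6 include both probe sets of HSPA13. The second of these passed the filter through the newborns alone and lay at background at 28 dpn. In period III the animals of 28 and 188 dpn overlapped for all 10, and 0.485% and 0.756% of all probe sets stood higher and lower. Since these contrasts chose the genes, the shares are given for scale only.

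The scaling of the arrays bears on the smaller differences. The deposited values are scaled to a common trimmed mean, and centring each array on its median instead shifted the median change of all genes by 0.171 in period I, 0.315 in period II and 0.0609 in period III. Under that centring the HSPA5 difference in period II was -0.14 in place of -0.45, the CALR difference in period I was -0.15 in place of -0.32, and the HSPA13 difference in period I was 0.38 in place of 0.21. No difference of the 10 probe sets changed sign under this or quantile scaling. With the actin ratio as a covariate, some differences of period II moved by at least the SD between animals. They were then -2.12 for DNAJB11, -2.30 and -0.021 for the brighter and the second DNAJC3 probe set, -1.77 for SDF2L1 and 1.26 for CALR.

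The other genes of the compartment were taken from 7 lists, on which 114 of 174 genes were measured and 111 could be tested with limma in each period. Of these, 59 rose and 23 fell in period I (53.2% and 20.7%), against 29.8% of all 5206 genes that rose and 35.6% that fell, and with arrays centred on their median 69 rose and 13 fell, against 39.6% and 24.7% of all genes. In period II 16 rose and 68 fell (14.4% and 61.3%), against 32.2% and 35.7% of all 5335 genes. With arrays centred on their median the count for period II was 33 that rose and 40 that fell (29.7% and 36.0%), against 50.8% and 19.6% of all genes. With the actin ratio as a covariate 5 rose and 39 fell. No share of all genes was counted for that fit, which cannot separate the ratio from stage, so the drop cannot be assigned to the ER genes. In period III 8 rose and 43 fell (7.21% and 38.7%), against 17.5% and 28.3% of all 5255 genes. The median change of the ER genes was 0.31 in period I, -0.34 in period II and -0.14 in period III, beside -0.06, -0.03 and -0.06 for all genes. The hepatocyte markers had a median change of -0.06 in period I, -0.49 in period II and 0.30 in period III, and their part in the ER changes was not tested. The level was highest at 1 dpn for 55 of the 111 genes and lowest at 188 dpn for 55 (49.5% each), against 22.2% and 36.1% of all genes. The animals of a stage included sibs that the labels do not identify, so the adjusted p-values may be too small.

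**Figure D2:**
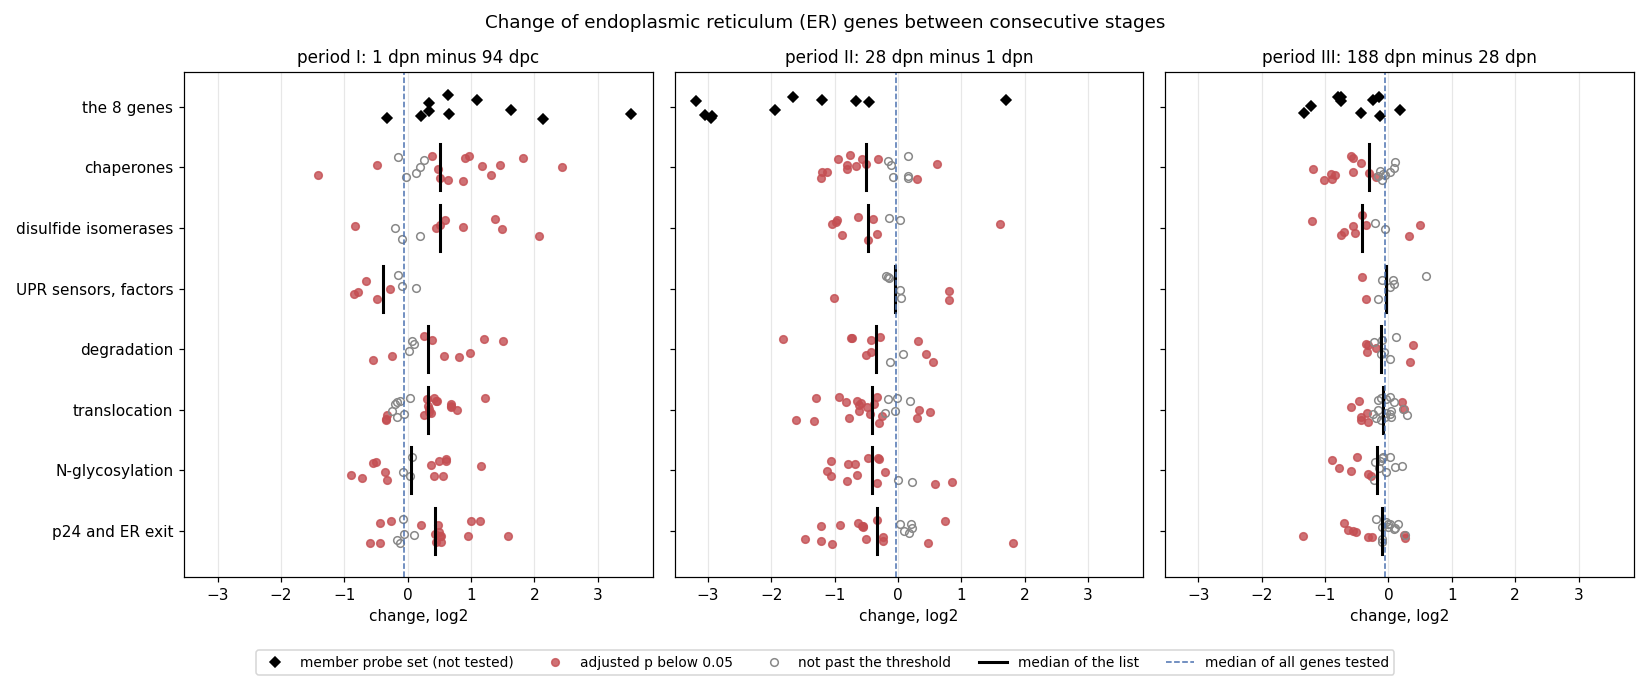
Change between consecutive stages (log2, later minus earlier) of the 10 member probe sets and of the genes on the 7 ER lists, in 3 panels for periods I to III. Filled points passed an adjusted p of 0.05, open points did not, black bars are list medians and the dashed line is the median of all genes tested. Most list medians lie right of the dashed line in period I and left of it in period II, whereas the sensor list (UPR, unfolded protein response) lies left of it in period I.

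Among the partners of HSPA5 and further chaperones, 12 of 19 rose and 2 fell in period I. CRELD2 averaged 12.03 ± 0.52 at 1 dpn and 9.59 ± 0.28 at 94 dpc (SD, n = 15 each), a rise of 2.44 ± 0.15 (limma, adjusted p = 2.5e-15). HYOU1, the large Hsp70 relative that exchanges the nucleotide of HSPA5, rose by 1.82 ± 0.13, MANF, a secreted partner of HSPA5, by 1.46 ± 0.09, and HSP90B1, the Hsp90 of the ER, by 1.17 ± 0.13. Newborns exceeded all fetuses in each of these 4 genes. DNAJB9, another J-domain partner, rose by 0.97 ± 0.15 with some overlap. FKBP10 fell by 1.42 on the log2 scale, and FKBP14 fell as well. Both are prolyl isomerases known from collagen folding. CANX differed by -0.14 ± 0.07 (limma, adjusted p = 0.073) on its brightest probe set, and its other 5 probe sets by -0.48 to 0.57. Quantile normalization gave -0.29 (limma, adjusted p = 0.0012), leaving out each stage's least correlated array -0.17 (adjusted p = 0.036) and median centring 0.027, so that no direction can be given.

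The same list fell in the later periods, with 11 of 19 genes down in period II and 11 in period III. CRELD2 fell by 1.21 in period II and by 1.18 in period III, HYOU1 fell by 1.20 and by 0.90, and MANF fell by 0.81 and by 1.02. HSP90B1 fell by 0.95 in period II and fell by 0.85 in period III. DNAJB9 fell by 1.13 in period II and differed by -0.16 ± 0.14 in period III (limma, adjusted p = 0.37). CNPY2 and TOR1A were the 2 that rose in period II, CNPY2 by 0.61 ± 0.08 (0.35 and adjusted p = 0.24 by limma with the actin ratio as a covariate), and 0 genes of the list rose in period III.

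Of the disulfide isomerases and oxidases, enzymes that form and rearrange disulfide bonds, 7 of 11 rose and 1 fell in period I. PDIA4 rose by 2.07 ± 0.12, ERP44 by 1.49 ± 0.07 and PDIA3, which works with CALR and CANX on glycoproteins, by 1.39 ± 0.07, all without overlap, and PDIA6 rose by 0.51 ± 0.07. A second ERP44 probe set was higher by 0.50 in that period. TMX1, a membrane-bound member, fell by 0.82. In period II 8 fell and 1 rose, and in period III 7 fell and 2 rose. PDIA3 fell by 0.98 in period II and fell by 1.21 in period III, each time without overlap. QSOX1 rose in period II by 1.61 ± 0.13, but 2 other probe sets of this gene differed by -0.29 and 0.06, the second of them below the filter on low values. For PDIA4 in period II the brightest probe set gave -0.14 ± 0.12 (limma, adjusted p = 0.3) and the other 2 gave -1.30 and -3.16, so that its size there depends on the probe set. Its sign there depends on the scaling, with -0.36 (limma, adjusted p = 0.0068) under quantile normalization and 0.18 under median centring.

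Among the sensors and factors of the unfolded protein response, whose difference from the other lists was not tested, calls in period I were falls. This list held 20 genes, of which 8 were measured and tested. In period I 0 rose and 5 fell: DDIT3, PPP1R15B, ATF6B, CREB3L2 and ATF4. These were 0% and 62.5%, against 29.8% and 35.6% of all genes. DDIT3, also called CHOP, averaged 8.38 ± 0.84 at 1 dpn and 9.22 ± 0.37 at 94 dpc, a fall of 0.85 ± 0.22 (limma, adjusted p = 0.0015), and rose by 0.80 ± 0.24 in period II (1.48 and adjusted p = 0.077 by limma with the actin ratio as a covariate). ATF6B fell by 0.66 in period I and rose by 0.80 ± 0.08 in period II, with all pigs of 28 dpn above all newborns. PPP1R15B fell by 0.79 in period I on its brightest probe set, whereas its other 2 probe sets, both below the filter on low values, were higher by 0.52 and 1.18. ATF4 fell by 0.28, with a second probe set below the filter that was higher by 0.54. This call was lost under median centring (-0.11, limma adjusted p = 0.4), with no filter (adjusted p = 0.06), with each stage's least correlated array left out (adjusted p = 0.069) and with the actin ratio (adjusted p = 0.16). XBP1 averaged 13.56 ± 0.19 in fetuses, 13.40 ± 0.32 in newborns, 13.44 ± 0.15 at 28 dpn and 13.54 ± 0.21 at 188 dpn, and passed the threshold in none of the 3 periods (limma, adjusted p = 0.17, 0.75 and 0.32). Other scalings called it, as a fall in period I under quantile normalization (-0.26, limma adjusted p = 0.012) and as a rise in period II under median centring (0.35, adjusted p = 0.0024). Splicing of XBP1, phosphorylation and protein were not measured. The sensors ERN1, EIF2AK3 and ATF6 of this list were not among the genes tested. HERPUD1, SIL1 and P4HB were not analysed here either.

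ER-associated degradation, which draws misfolded proteins back to the cytosol, had 7 of 12 genes up and 2 down in period I. The channel component DERL1 rose 2.83-fold and the mannosidase-like EDEM2 by 1.20 ± 0.12, both without overlap, and SELENOS rose by 0.98 ± 0.13. In period II 7 fell and 3 rose: ERLEC1, a lectin of this pathway, fell by 1.81 without overlap, and UFD1, UBE2J2 and AUP1 were higher. In period III 4 fell and 2 rose, none by more than 0.38. These were 33.3% and 16.7%, near the 28.3% and 17.5% of all genes.

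Of the 24 genes of translocation and signal peptide removal, 14 rose and 3 fell in period I. SEC11C, a catalytic subunit of signal peptidase, rose by 1.22 ± 0.09 without overlap, and the signal recognition particle subunit SRP54 by 0.77 ± 0.11. In period II 16 fell and 3 rose, with 3 subunits of the signal recognition particle among them: SRP19 fell by 1.61, SRP72 fell by 1.32 and SRP54 fell by 1.30, all without overlap. SEC61B, a subunit of the channel, rose by 0.44 ± 0.10 in period I and by 0.31 ± 0.10 in period II. The second was 0.11 and no longer called under quantile normalization (limma, adjusted p = 0.31). With the actin ratio as a covariate it was -0.27, in a fit that cannot separate the ratio from stage. In period III 6 fell and 2 rose (25.0% and 8.33%), against 28.3% and 17.5% of all genes.

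N-glycosylation was the list with the most even split in period I, where 7 of 16 genes rose and 6 fell. These were 43.8% and 37.5%, against 29.8% and 35.6% of all genes, so the share that fell was near that of all genes. DAD1, a subunit of the oligosaccharyltransferase, rose by 1.16 ± 0.09 and ALG8, a glucosyltransferase, fell by 0.90. In period II 12 fell and 2 rose, among them the oligosaccharyltransferase subunits OSTC, which fell by 1.12, and RPN1, which rose by 0.84 ± 0.10 (0.57 and adjusted p = 0.11 by limma with the actin ratio as a covariate), and in period III 6 fell and 0 rose. The counts of period III were 37.5% and 0%, against 28.3% and 17.5% of all genes. STT3A, the catalytic subunit of the oligosaccharyltransferase, fell by 1.06 in period II and by 0.89 in period III.

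The p24 family and the coat and receptors of ER exit, to which TMED3 belongs, had 12 of 21 genes up and 4 down in period I, 3 up and 13 down in period II, and 2 up and 7 down in period III. The last were 9.52% and 33.3%, against 17.5% and 28.3% of all genes. TMED5, another p24 protein, rose by 1.58 ± 0.14 in period I and fell by 1.46 in period II, without overlap each time. TMED10 fell by 0.60 in period I on its brighter probe set, while the other one was higher by 0.13. KDELR3, a receptor that returns chaperones to the ER, fell by 1.35 in period III. ERGIC1 rose by 1.81 ± 0.08 in period II, but its 2 other probe sets differed by -0.13 and 0.03, the second of them below the filter on low values.

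Chaperones of the cytosol and mitochondria had 7 of 25 genes up and 13 down in period I, 4 of 24 up and 14 down in period II, and 3 of 24 up and 11 down in period III. In period I these were 28.0% and 52.0%, against 29.8% and 35.6% of all genes, so the share that rose was near that of all genes. With more falls than rises, their counts in period I ran the other way from those of the ER chaperones, and no test of that difference was made. Acute phase proteins had 9 of 14 genes up and 2 down in period I (64.3% and 14.3%), 2 up and 9 down in period II, and 9 up and 2 down in period III.

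Covariation of the 8 genes among animals of the same stage was uneven. The pair of DNAJB11 and the brighter DNAJC3 probe set had the highest r of the 28 gene pairs at 1 and 28 dpn, DNAJC3 with HSPA13 had it at 94 dpc (0.81) and HSPA5 with HSPA13 at 188 dpn (0.68). For DNAJB11 and DNAJC3 Pearson's r was 0.68 in fetuses (n = 15), 0.94 in newborns (n = 15), 0.79 at 28 dpn (n = 14) and 0.59 at 188 dpn (n = 16). Spearman's rho was 0.50, 0.91, 0.61 and 0.56 in the same order, and r without the 2 animals farthest from the median of DNAJB11 was 0.47, 0.89, 0.48 and 0.59. With the second DNAJC3 probe set the r of DNAJB11 was 0.10 in fetuses, 0.75 in newborns, -0.29 at 28 dpn and 0.53 at 188 dpn. By the numbers that name the animals here, animal 3 was the highest of the newborns for DNAJB11, the brighter DNAJC3 probe set, HSPA13 and CALR, and animal 11 the lowest for DNAJB11, both DNAJC3 probe sets and HM13. At 28 dpn animal 11 was the lowest and animal 5 the highest for DNAJB11 and the brighter DNAJC3 probe set, but animal 11 was the highest for the second DNAJC3 probe set.

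**Figure D3:**
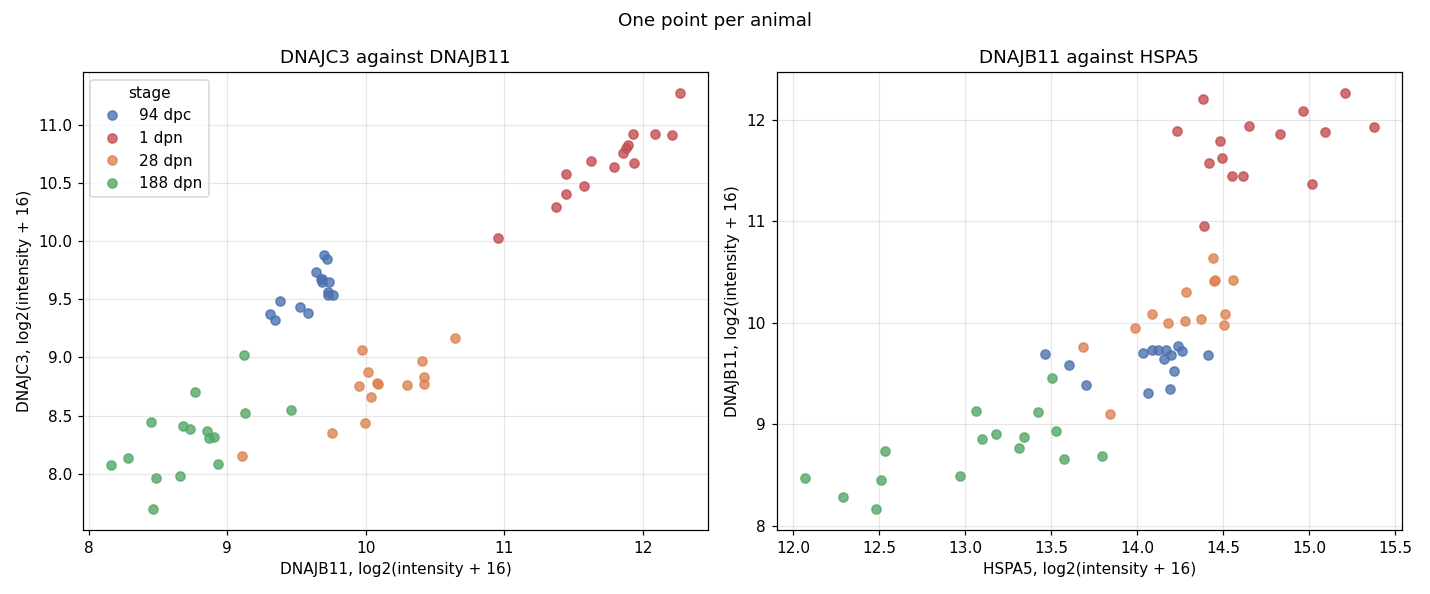
Levels (log2 of intensity plus 16) of the brighter DNAJC3 probe set against DNAJB11 and of DNAJB11 against HSPA5, with 1 point per animal coloured by stage. Within a stage this DNAJC3 probe set went with DNAJB11 (r of 0.59 to 0.94), whereas DNAJB11 went with HSPA5 mainly at 28 dpn (r = 0.72) and 188 dpn (r = 0.65).

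HSPA5 itself went with its helpers in the older pigs only in part. With DNAJB11 its r was 0.19 in fetuses, 0.35 in newborns, 0.72 at 28 dpn and 0.65 at 188 dpn. With the brighter DNAJC3 probe set it was 0.20, 0.44, 0.75 and 0.43, and with the second 0.39, 0.22, 0.05 and 0.44. With SDF2L1 it was 0.35, 0.43, 0.62 and -0.18, and with HSPA13 it was 0.15, 0.46, 0.17 and 0.68. The second HSPA13 probe set had -0.07, 0.42, -0.10 and -0.11. Without the 2 animals of most extreme HSPA5 level, r with the brighter DNAJC3 probe set was 0.44 at 28 dpn and 0.15 at 188 dpn. Without them, r with SDF2L1 was 0.32 at 28 dpn, and r with the brighter HSPA13 probe set was 0.16 at 1 dpn and 0.45 at 188 dpn. Those values rest in part on these animals.

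The stages also grouped the genes differently. At 94 dpc DNAJB11 and the brighter probe sets of DNAJC3 and HSPA13 went together (r of 0.68 to 0.81). The second HSPA13 probe set had 0.41 with DNAJB11 and 0.44 with the brighter DNAJC3 one, and the second DNAJC3 probe set had 0.10 with DNAJB11. Without the 2 animals farthest from the DNAJB11 median, its r was 0.47 with DNAJC3 and 0.50 with HSPA13. Without the 2 farthest for DNAJC3, its r with HSPA13 was 0.89. In these fetuses TMED3 ran against the brighter probe sets (r of -0.47 with DNAJB11, -0.61 with DNAJC3 and -0.56 with HSPA13) and CALR went with HM13 (r = 0.70). In the same fetuses the summed hepatocyte markers had an r of -0.543 with DNAJB11, -0.773 with DNAJC3 and -0.806 with HSPA13, and of 0.591 with CALR and 0.539 with TMED3. The part of these markers in the grouping was not tested. At 1 dpn SDF2L1 joined DNAJB11 (r = 0.77), DNAJC3 (r = 0.74) and HM13 (r = 0.71). Of the 28 gene pairs, 4 had an r of at least 0.6 in fetuses, 6 in newborns, 5 at 28 dpn and 2 at 188 dpn, where 2.2%, 2.93%, 3.77% and 3.43% of all gene pairs did. The median r of the 28 pairs was 0.103, 0.278, 0.142 and 0.127, and the lowest pair ranged from -0.608 at 94 dpc to -0.181 at 188 dpn. All correlations of a stage share the same arrays and their scaling.

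**Figure D4:**
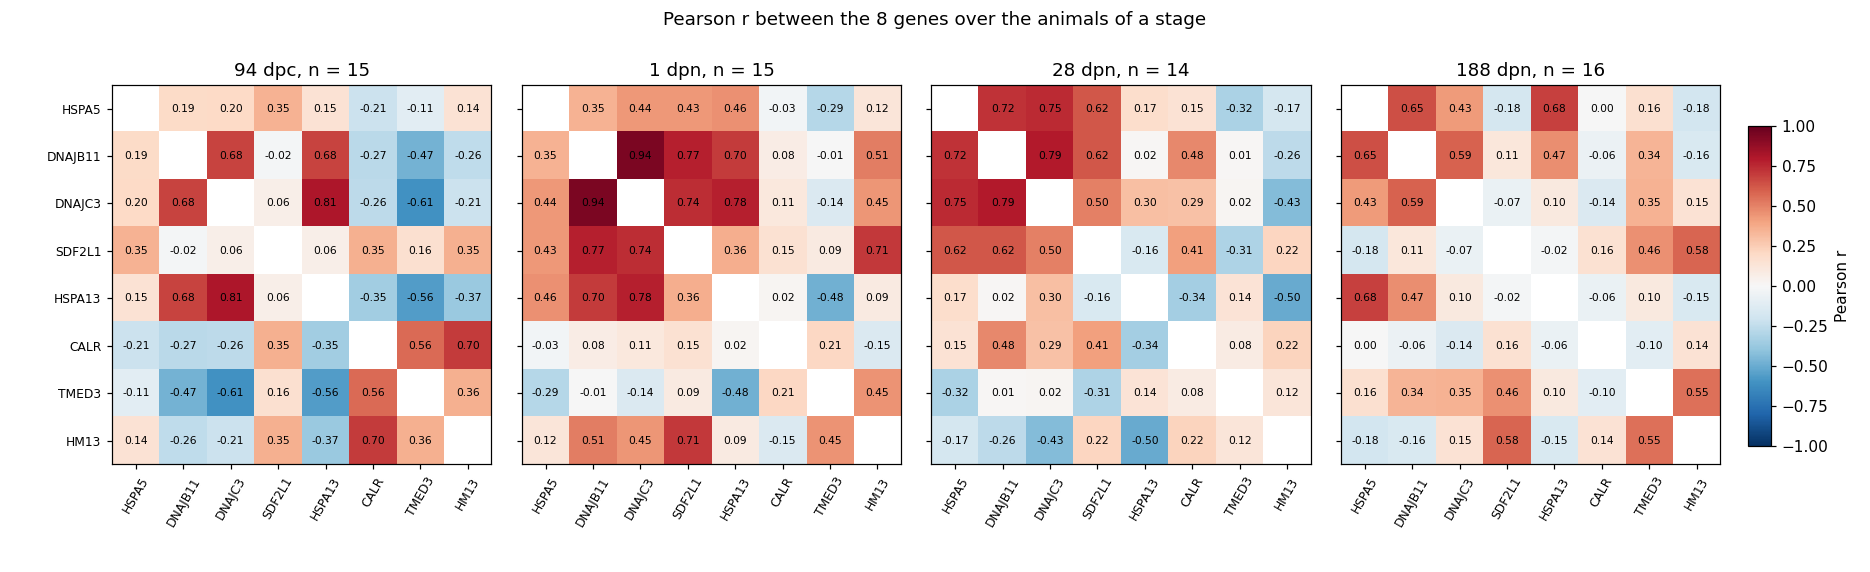
Pearson r between each pair of the 8 genes, each by its brighter probe set, over the animals of a stage (14 to 16 animals), in 1 panel per stage with the value printed in each cell. The cell of DNAJB11 and DNAJC3 is red at every stage (0.68, 0.94, 0.79 and 0.59), and the 2 highest values of CALR are those with HM13 (0.70) and TMED3 (0.56) at 94 dpc.

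The members differed in how they went with the 111 other ER genes. For the brighter DNAJC3 probe set the median r with these genes was -0.129 in fetuses, 0.461 in newborns, 0.189 at 28 dpn and 0.0275 at 188 dpn, and for the second it was -0.0542, 0.227, -0.131 and 0.0735. At 1 dpn DNAJB11 (0.420), SDF2L1 (0.467) and HM13 (0.525) also had high medians, and CALR (0.0139) did not, beside -0.122 to 0.0912 for the medians of the member probe sets with all genes. SDF2L1 went with CRELD2, with an r of 0.377 in fetuses, 0.825 in newborns, 0.871 at 28 dpn and 0.872 at 188 dpn, and with PDIA4 (0.601, 0.942, 0.610 and 0.578). CALR had an r of 0.714 with PDIA3 at 28 dpn and of -0.135 at 188 dpn, with values near 0 around birth. With CANX, its partner in the same folding cycle, CALR had -0.509, 0.253, 0.355 and -0.127. These pairs were picked after their values were seen.

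Whether other ER genes vary with HSPA5 among animals of a stage was tested with limma, with stage and the HSPA5 level in the model. Over all 60 arrays 29 of 111 ER genes (26.1%) had a positive slope at an adjusted p below 0.05 and 1, KDELR1, a negative one, against 7.8% and 4.74% of 5490 genes. The adjusted counts depended on the oldest pigs. At 188 dpn alone 20 ER genes (18.0%) and 284 of all genes (5.17%) went with HSPA5, whereas at 94 dpc, 1 dpn and 28 dpn taken singly 0 ER genes and 0 of all genes passed limma's adjusted threshold. Without 188 dpn the 3 other stages together gave 1 ER gene, MANF (slope 0.61 ± 0.12, limma adjusted p = 0.021), and 2 of all genes. At an unadjusted p below 0.05, 4 ER genes were positive at 94 dpc, 13 at 1 dpn and 12 at 28 dpn (3.60%, 11.7% and 10.8%), against 2.19%, 2.22% and 3.81% of all genes, and 28 in these 3 stages together (25.2% against 4.41%). By the same threshold 34 were positive at 188 dpn (30.6%), where 18.7% of all genes were positive too. There 13 ER genes and 728 of all genes were negative. Leaving out each animal in turn gave 26 to 35 ER genes, but without animal 8 of 188 dpn, the one of lowest HSPA5, only 211 of all genes in place of 428 were positive, without animal 9 only 266 and without animal 15 only 264.

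By list, 6 of 19 chaperones, 4 of 11 disulfide isomerases, 1 of 8 sensors and factors, 3 of 12 degradation genes, 5 of 24 translocation genes, 3 of 16 glycosylation genes and 7 of 21 p24 and exit genes went with HSPA5. So did 8 of 25 cytosolic and mitochondrial chaperones, with 1 against, and 0 of 14 acute phase proteins, which left ER and cytosolic chaperones with similar shares. HSP90B1 had an r with HSPA5 of 0.16 in fetuses, 0.45 in newborns, 0.72 at 28 dpn and 0.82 at 188 dpn. Its rho at 188 dpn was 0.62 and r without the 2 most extreme animals 0.69 (permutation p = 0.00013 for r, 0.0036 adjusted over 56 relations, and 0.012 for rho, 0.12 adjusted). For TMED10 at 188 dpn r was 0.83 and rho 0.71 (permutation p = 6e-05 and 0.0028, adjusted 0.0034 and 0.05). MANF had 0.69 at 1 dpn and 0.81 at 28 dpn (permutation p = 0.005 and 0.001, adjusted 0.031 and 0.012), with rho of 0.57 and 0.66 whose adjusted p of 0.2 and 0.12 missed the threshold.

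**Figure D5:**
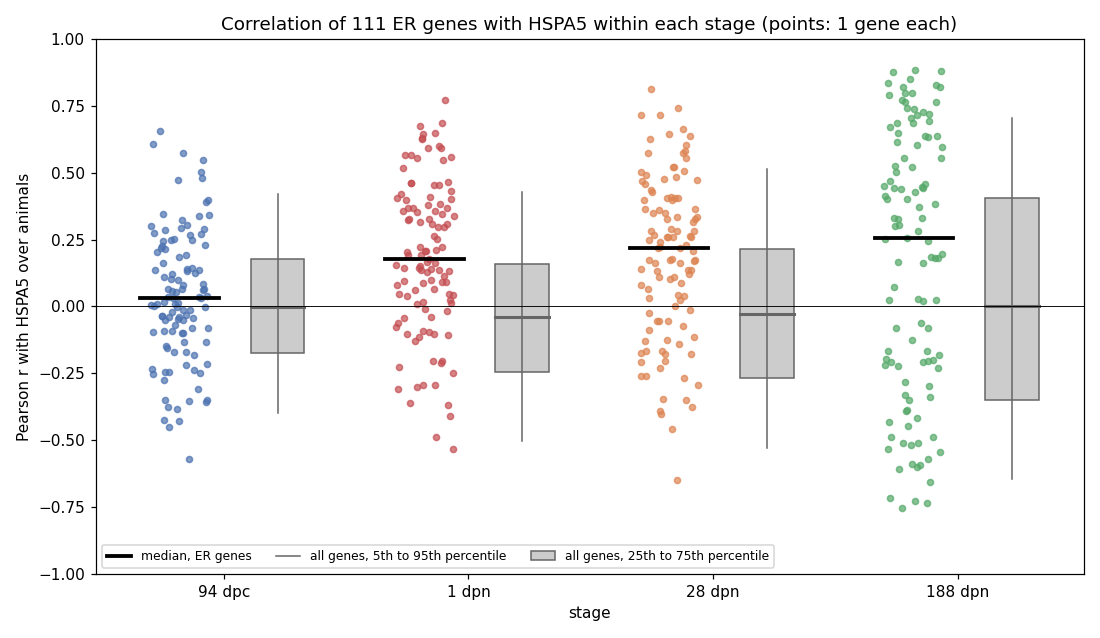
Pearson r with HSPA5 over the animals of each stage (vertical axis) for 111 ER genes, 1 coloured point per gene, with their median as a black bar, and beside them in grey the median, the 25th to 75th and the 5th to 95th percentile of 5490 genes. The ER median is 0.03 in fetuses, 0.18 in newborns, 0.22 at 28 dpn and 0.26 at 188 dpn, the last with the widest spread in both sets.

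The 10 genes outside the set whose within-stage course was most like that of HSPA5, by the mean of r over the 4 stages, were TRAM1, TMEM167A, CALU, ASNSD1, GART, MANF, TRAPPC2, ORMDL1, ARL1 and GPATCH4. Their mean r ran from 0.62 for TRAM1, a protein beside the translocation channel, to 0.55 for GPATCH4. TRAM1 was the steadiest, with 0.61 in fetuses, 0.63 in newborns, 0.48 at 28 dpn and 0.77 at 188 dpn. CALU is a calcium-binding protein of the secretory pathway and had 0.30, 0.75, 0.67 and 0.72, whereas ARL1, a small GTPase of the Golgi, had -0.04 at 94 dpc and 0.78, 0.63 and 0.85 after birth. Over all genes the median of this mean r was -0.02.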

How the data were processed

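Liver RNA of 60 offspring of mothers on the adequate protein diet was hybridised to 1 array each. The authors deposited 1 linear intensity per probe set and array, for which GCOS 1.1.1 is the software listed by the submitters. A mean trimmed by 2% on either side lay near 500 on all arrays, the mark of scaling to a fixed target. The study's mixed models used GCRMA values instead, which were not used here.

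Here intensities were raised by 16 and taken to log2. Of 24123 probe sets, 124 controls were left out. A probe set entered a comparison when it lay above its array's median in at least 50% of the animals of a stage compared. The platform annotation names 1 gene for 10069 probe sets, several for 198 and none for 13732, and the brightest probe set stood for each of 6765 genes. Stages of a period were compared with limma 3.58.1 in R 4.3.3, two-sided, with Benjamini-Hochberg adjustment over all probe sets tested and a threshold of 0.05. Genes were called with HSPA5 from a limma fit with stage and HSPA5 level as terms, and permutation p-values used 100000 resamples. The steps were tested on simulated data.

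Animals were grouped by the stage in the labels. Litter, sex and weight are not in the labels, so animals were treated as independent although sibs were sampled. The number of arrays limits the precision. Members and lists were chosen with earlier results of these data known. Genes named are the 8 members, up to 3 called genes of largest change in the main direction and 1 in the other for each list and period, a fixed set given in every period, and the 10 most like HSPA5. No coordinates or sequences are given, since no genome was used here. Alternatives were another scaling, pseudocount, filter, probe set rule and fit, the actin ratio as a covariate, single stages, and leaving out arrays.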

Additional observations from a re-analysis of the deposited data

How the results depend on the processing

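The medians of the 8 members kept their sign under 6 alternatives each, 0.85 to 1.05 in period I, -2.21 to -1.49 in period II and -0.76 to -0.66 in period III, and the median within-stage r ran from 0.11 to 0.15. Of the ER genes, 57 to 69 rose in period I and 35 to 47 fell in period III over 9 alternatives. Median centring gave 13 that fell in period I in place of 23, and 33 that rose and 40 that fell in period II in place of 16 and 68. The actin ratio as a covariate gave 5 and 39 in period II, where that fit cannot separate the ratio from stage and no count over all genes was made. In period III, 8 rose, but 5 under quantile normalization, 5 with no filter and 3 with the actin ratio. Against HSPA5 went 1 gene, 7 under quantile normalization and 0 under median centring, with no filter, within any single stage and without 188 dpn. With HSPA5 went 29, but 0 at 94 dpc, 1 dpn or 28 dpn alone and 1 without 188 dpn (that setting and the leaving out of single animals were chosen after seeing the data). Fewer arrays enter those fits, and the cause was not otherwise tested. Among single genes not past the threshold, signs turned for XBP1 (period I 0.016 under median centring, period II -0.18 under quantile normalization and -0.19 with the actin ratio, period III -0.052 under quantile normalization), CANX in period I (0.027 under median centring, 0.11 with the mean of its probe sets), PDIA4 in period II (0.18 under median centring), ATF4 in period II (0.15 under median centring, 0.29 with the actin ratio), and DNAJB9 in period III (0.030 with the mean of its probe sets). Calls were gained for XBP1 (period I -0.26 under quantile normalization, period II 0.35 under median centring), for CANX in period I (-0.29) and ATF4 in period II (-0.33) under quantile normalization, and for PDIA4 in period II (-0.36 under quantile normalization, -1.53 with the mean of its probe sets). Of called genes, TMED10 in period II turned to 0.075 under median centring and SEC61B in period II to -0.27 with the actin ratio. The slope of SEC61B on HSPA5, which was not called (-0.087, limma adjusted p = 0.59), was 0.040 without 188 dpn. The cause was not tested. The mean of several HSPA5 probe sets was not run, since HSPA5 has 1. No paired analysis was possible because the labels carry no litter or replicate number that groups share.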
